A study of Mus musculus with 8 samples.

Results

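The genes described here are the hepcidins *Hamp* and *Hamp2*, the ligand gene *Bmp6*, the BMP-SMAD target genes *Id1*, *Smad6* and *Smad7*, the transferrin receptor genes *Tfr2* and *Tfrc*, and the ferritin genes *Fth1* and *Ftl1*. They were chosen by symbol, and all 10 were found among the 27179 genes of the liver RNA sequencing table. The mice were adult males of the strain C57BL/6NHsd after a fast of 6 h, and the livers of 4 wild-type animals (V227) and of 4 animals homozygous for the V227A substitution (A227) in the nuclear receptor PPARɑ were sequenced. The substitution was made in zygotes by adenine base editing of *Ppara*, and the colony goes back to 1 heterozygous founder that was crossed back to the same strain and bred as heterozygotes. The allele is carried in the germline, so it is present in every cell type of the liver.

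Hepcidin is a small peptide hormone that hepatocytes secrete when body iron is high. It binds the iron exporter ferroportin and causes its degradation, which lowers the release of iron into plasma. Liver endothelial cells produce BMP6, which acts on BMP receptors of hepatocytes. SMAD proteins then carry the signal to the hepcidin gene and to other targets. Inside cells, ferritin stores iron, and iron regulatory proteins bind stem-loops named iron-responsive elements in the mRNAs of ferritin and of transferrin receptor 1. At the ferritin mRNAs such binding blocks translation, and at the *Tfrc* mRNA it protects the message from decay.

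The level of a gene is given here as the authors' mean over the 8 libraries of both genotypes. It is expressed as CPM, the usual library-size-scaled read count, after removal of the small prior count that the authors' tool adds. To compare different genes, the CPM was divided by the length of 1 principal mRNA in kilobases (kb), and orders per kb hold for that length. Values per library were not analysed, and columns of the authors' own comparison of the genotypes were not used. No difference between wild-type and V227A is therefore reported, and neither an SD nor a test could be given for any gene. The intervals below cover 95% of counting error only (exact Poisson), not the spread between mice. In whole liver, fewer cells of a type and less RNA per cell cannot be told apart.

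Of the 27179 genes, 18937 had reads, and the mean effective library size was estimated at 27473997 reads. The median gene with reads had an estimated 100.1 reads per library. All 10 genes of the group had at least 10 estimated reads per library, against 68.8% of the genes with reads. Hepatocyte markers lay between 332 CPM per kb for *Cps1* and 34208 CPM per kb for *Alb*, the highest gene of the table. The level of *Ppara*, 97.2 CPM per kb, does not check the genotype, because a single-base substitution leaves the mRNA countable.

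The iron-responsive elements in the ferritin and *Tfrc* mRNAs are shown first, because they are the sequence feature that these iron storage and uptake genes have in common. The search asked for a C, 5 stem bases, the loop CAGTGN and 5 bases that pair with the stem, a G with T included, on the sense strand of 1 principal coding mRNA per gene. The sequences are from GENCODE vM21 (GRCm38), written 5′ to 3′ with T for U, and the loop is in capitals.
*Fth1* 5′ UTR: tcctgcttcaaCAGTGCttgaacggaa
*Ftl1* 5′ UTR: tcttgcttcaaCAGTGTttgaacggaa
*Tfrc* 3′ UTR, element 1: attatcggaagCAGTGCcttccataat
*Tfrc* 3′ UTR, element 2: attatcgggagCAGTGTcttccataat
*Tfrc* 3′ UTR, element 3: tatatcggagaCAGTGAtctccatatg
*Tfrc* 3′ UTR, element 4: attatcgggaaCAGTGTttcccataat

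The *Fth1* element lies at chr19:9982733-9982759 on the plus strand, in exon 2 of the 5 exons of the mRNA used. That mRNA has 1494 bases, and the shortest principal mRNA of *Fth1* has 929. The exon number and the distance from the mRNA start hold for the longer one only. The *Ftl1* element is at chr7:45459780-45459806 on the minus strand, in exon 1 of 4. The 4 matched *Tfrc* elements all sit in exon 19, the last one, of the plus strand of chromosome 16. Their positions are chr16:32631220-32631246, chr16:32631599-32631625, chr16:32631664-32631690 and chr16:32631711-32631737. Among 15943 principal coding mRNAs of genes with reads, 18 (0.113%) held a match in the 5′ UTR and 100 (0.627%) held one in the 3′ UTR. The mRNAs of the other 7 genes of the group, both hepcidins and *Tfr2* included, held 0 matches. Elements that depart from the searched form would be missed, so these counts hold for that form only. A match is a description of the sequence, and binding of iron regulatory proteins was not measured.

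**Figure D1:**
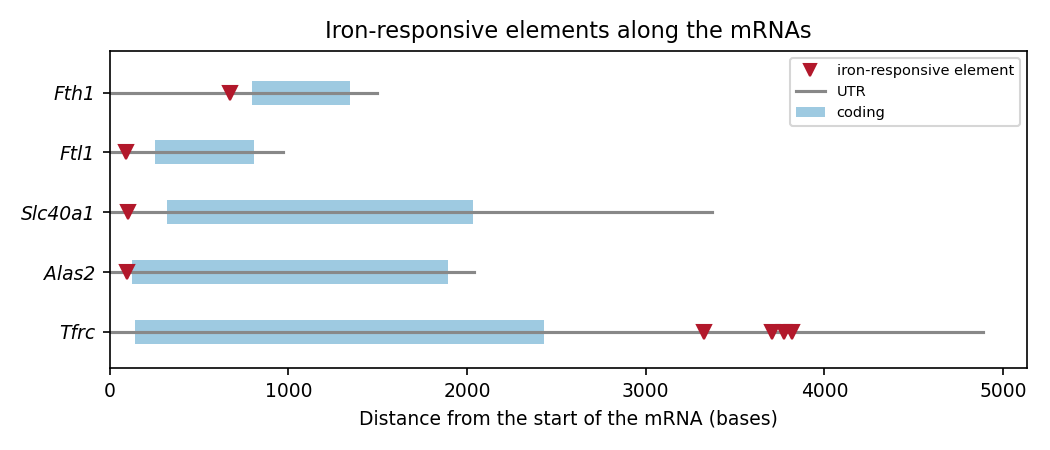
Each line is 1 principal mRNA, drawn to scale in bases from its start, with the coding part as a blue bar, UTRs as grey lines and iron-responsive element matches as red triangles. *Fth1*, *Ftl1* and 2 genes outside the group, *Slc40a1* (ferroportin) and *Alas2* (erythroid haem synthesis), have 1 match each, before the coding part, and *Tfrc* has 4, all behind it. *Fth1* is drawn with its mRNA of 1494 bases, and the distance of its match from the start holds for that mRNA only.

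Among the hepcidins, *Hamp* was the most abundant gene of the whole group per kb, with 1994 CPM per kb (counting interval 1985 to 2004). The authors' mean log2 CPM of *Hamp*, without division by length, was 9.68, which placed it at rank 156 of the 18937 genes with reads. It was estimated from 22465 reads per library. *Hamp2*, the neighbouring copy of the hepcidin gene that mice carry, had 66.7 CPM per kb (65.1 to 68.4), from 801 reads per library. Both genes are on the minus strand of chromosome 7, *Hamp* (gene 84506) at 30942368 to 30944032 and *Hamp2* (gene 66438) at 30922372 to 30924681. The level of *Hamp* was 29.9 times that of *Hamp2* per kb (29.2 to 30.7). Of the stretches of 31 bases in the *Hamp* mRNA, 33.7% also occur in *Hamp2*, and reads inside them could have been assigned to either gene or dropped. That share was counted on the sequence, and its part in the ratio was not tested.

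The stretches at and before the RefSeq starts of the hepcidin genes are shown because the copies differ there inside a SMAD element. They come from RefSeq (GRCm38.p6), 5′ to 3′ on the minus strand, for *Hamp* at chr7:30944030-30944159 and for *Hamp2* at chr7:30924179-30924308. In GENCODE the *Hamp2* gene starts further upstream, at 30924681, so the *Hamp2* stretch lies inside the GENCODE span of that gene. Which start is used in these livers was not tested. The first block of capitals marks bases 22 to 27, where *Hamp* has the GC-rich element GGCGCC that SMAD proteins can bind. The second block marks bases 34 to 42, which hold an element of the form TTCNNGGAA, the kind that STAT proteins bind.
*Hamp*: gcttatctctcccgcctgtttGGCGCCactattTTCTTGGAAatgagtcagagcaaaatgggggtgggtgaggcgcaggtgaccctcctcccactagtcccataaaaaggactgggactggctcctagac
*Hamp2*: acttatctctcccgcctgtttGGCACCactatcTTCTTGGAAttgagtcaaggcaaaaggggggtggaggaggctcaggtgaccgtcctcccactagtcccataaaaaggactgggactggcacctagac

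Without gaps, 118 of the 130 bases (90.8%) were the same in both hepcidin genes. Counted from 1 at the 5′ end of the stretch, with the base of *Hamp* first, G25A is the 1 substitution inside the GC-rich element. The STAT element holds 0 of the 12 substitutions. Promoter windows run from 250 bases before to 50 bases after a RefSeq start site. For 8 genes of the group 12 windows were at hand, with none for *Id1* and *Smad7*. On either strand, GGCGCC was found in 2 of these 12 windows, those of *Hamp* and 1 of *Tfrc*, and in 11.9% of all 32851 windows. TTCNNGGAA was found in 2 of the 12, those of *Hamp* and *Hamp2*, and in 4.81% of all windows. A direct repeat of 2 copies of AGGTCA with 1 free base between them, a form that PPAR-RXR pairs bind, was found in 0 of the 12 windows and in 0.0396% of all windows. These counts say which letters are in the windows and nothing about binding in these livers.

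*Bmp6* (gene 12161), whose product is the main iron-dependent inducer of hepcidin, was the lowest gene of the group. It had 0.436 CPM per kb (counting interval 0.391 to 0.485), from 43.1 reads per library. Its mean log2 CPM of 0.71 put it at rank 10925 of the 18937 genes, above 42.3% of them. *Bmp6* lies on the plus strand of chromosome 13 from 38345107 to 38500302. It shares 224 exonic bases with *Txndc5* on the opposite strand, which had 3347 reads per library. The strand setting of the authors' read counting is unknown here, so how many reads of this stretch belong to *Bmp6* is uncertain. The 5 endothelial marker genes, which mark the cells known to make BMP6 in liver, ranged from 1.93 CPM per kb for *Kdr* to 30.5 CPM per kb for *Clec4g*. The ligand gene *Bmp2*, also a product of liver endothelial cells, had 2.70 CPM per kb, 6.19 times *Bmp6* (5.52 to 6.96). With coding length this ratio was 7.93, outside the counting interval.

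The 3 BMP-SMAD target genes were all low to moderate in level. *Id1* (gene 15901), which encodes a helix-loop-helix protein that holds back DNA-binding partners, had 5.13 CPM per kb (4.85 to 5.41). It covers 152736251 to 152737410 on the plus strand of chromosome 2 and was estimated from 163 reads per library. *Smad7* (gene 17131) and *Smad6* (gene 17130) encode inhibitory SMADs, which feed back on BMP receptors. *Smad7* had 2.41 CPM per kb (2.31 to 2.51) and *Smad6* had 1.44 CPM per kb (1.35 to 1.54). The level of *Smad7* was 1.67 times that of *Smad6* per kb (1.55 to 1.81), 2.80 times with coding length and 3.80 times with the shortest principal mRNA of each. Their mean log2 CPM values, not divided by length, were 3.37 for *Smad7*, 2.59 for *Id1* and 2.12 for *Smad6*, so *Id1* led only once length was taken into account.

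The other BMP-SMAD targets on the list give a scale for these values. *Id2* had 27.5 CPM per kb, *Id3* had 20.8 CPM per kb and *Id4* was the lowest of the 5 at 0.126 CPM per kb. *Id2* and *Id3* thus stood above *Id1*, although *Id2* is known to respond to many other signals in hepatocytes.

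The transferrin receptors lay far apart. *Tfr2* (gene 50765), a sensor of transferrin-bound iron that is known for its high level in hepatocytes, had 123.8 CPM per kb (counting interval 122.9 to 124.6) from 10445 reads per library. *Tfrc* (gene 22042), which encodes the transferrin receptor 1 that takes up iron in most cells, had 2.39 CPM per kb (2.30 to 2.49) from 321 reads per library. The ratio of *Tfr2* to *Tfrc* per kb was 51.8 (49.8 to 53.8), and 31.1 with coding length. By mean log2 CPM, *Tfr2* was at rank 330 and *Tfrc* at rank 6720 of the genes with reads. *Tfr2* lies on chromosome 5 from 137569840 to 137587481 and *Tfrc* on chromosome 16 from 32608920 to 32632794, both on the plus strand. Of the 2 receptors, *Tfrc* alone carried matches to the iron-responsive element, the 4 shown above.

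The ferritin genes were among the most abundant mRNAs of the liver. *Fth1* (gene 14319), for the heavy subunit that oxidises iron, had a mean log2 CPM of 10.79 at rank 76, and *Ftl1* (gene 14325), for the light subunit, had 10.60 at rank 87. They were estimated from 48488 and 42652 reads per library. Per kb, *Ftl1* had 1604 CPM per kb (1598 to 1609) and *Fth1* had 1181 CPM per kb (1178 to 1185), a ratio of *Fth1* to *Ftl1* of 0.737. This order depends on the mRNA of *Fth1* that is used. With its shortest principal mRNA of 929 bases in place of that of 1494 bases, *Fth1* had 1900 CPM per kb and the ratio turned to 1.18. It was 1.14 with coding length and 0.439 with all exons. *Fth1* lies on the plus strand of chromosome 19 from 9980598 to 9985098, and *Ftl1* on the minus strand of chromosome 7 from 45457944 to 45459884.

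Both ferritin genes have processed copies elsewhere in the genome. Of the stretches of 31 bases in the *Ftl1* mRNA, 85.4% occur in at least 1 other annotated transcript, against 7.92% for *Fth1*. In GENCODE, the copy *Ftl1-ps1* carries 80.6% of them and *Ftl1-ps2* carries 27.1%. The deposited table has a row with the symbol *Ftl1-ps2* and 12.3 reads per library, but its Ensembl identifier (ENSMUSG00000062382) is that of *Ftl1-ps1* in GENCODE, so which of these copies was counted there is uncertain. How reads that match several copies were counted is not stated, so the level of *Ftl1* is less certain than its counting interval shows. For *Id1*, *Smad6*, *Smad7*, *Tfr2* and *Tfrc*, 0 such stretches were shared with other genes.

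**Figure D2:**
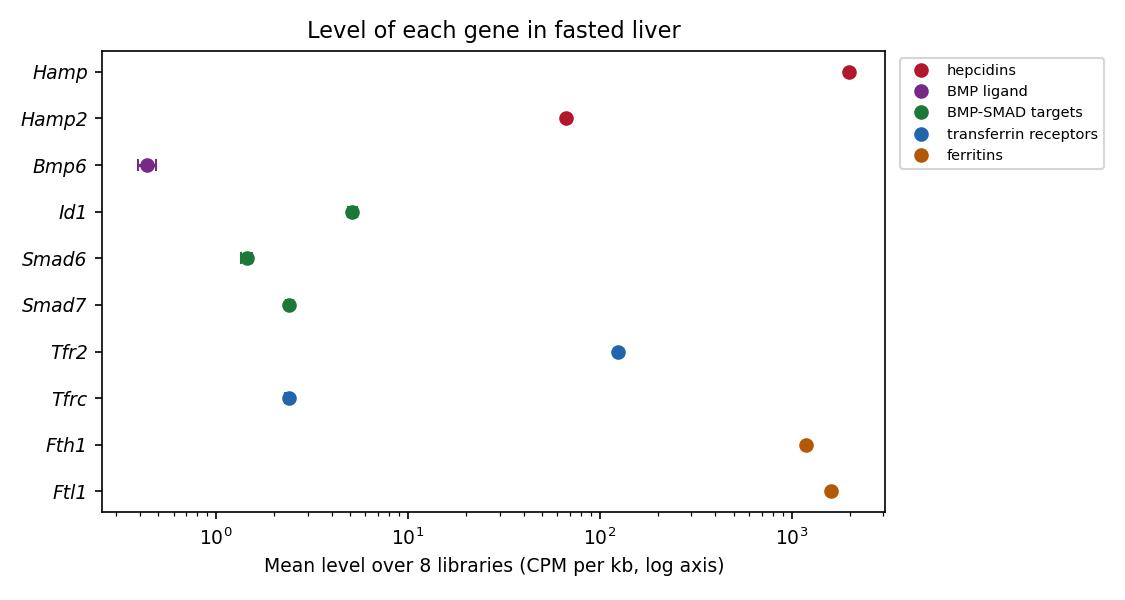
The mean level over the 8 libraries in CPM per kb is plotted on a log axis for each of the 10 genes, coloured by role, with bars for the 95% counting interval, most of them narrower than the point. *Hamp* (1994), *Ftl1* (1604) and *Fth1* (1181) are at the top and *Bmp6* (0.436) is at the bottom.

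From the highest to the lowest level per kb, the order was *Hamp*, *Ftl1*, *Fth1*, *Tfr2*, *Hamp2*, *Id1*, *Smad7*, *Tfrc*, *Smad6* and *Bmp6*. The counting intervals of the neighbours *Smad7* and *Tfrc* overlapped, and those of the other neighbours did not. By mean log2 CPM, the group ran from *Bmp6*, above 42.3% of the genes with reads, to *Fth1*, above 99.6% of them, and its median mean log2 CPM was 4.21 against 1.89 over all genes with reads. The secreted hormone, the iron store and the iron sensor of hepatocytes took the upper places, while *Bmp6*, the inhibitory SMAD genes and *Tfrc* took the lowest ones.

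**Figure D3:**
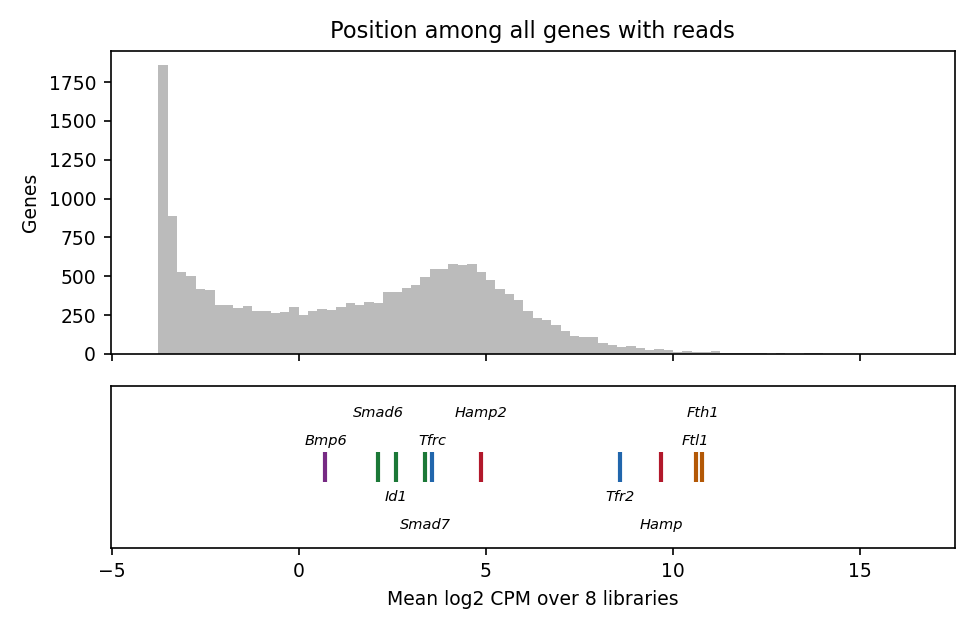
The histogram shows the mean log2 CPM of the 18937 genes with reads, and the marks beneath it place the 10 genes on the same axis. *Fth1* (10.79), *Ftl1* (10.60), *Hamp* (9.68) and *Tfr2* (8.57) lie in the upper tail, and *Bmp6* (0.71) lies below the middle of the distribution (1.89).

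The receptors, co-receptors and the protease upstream of the hepcidin gene were covered by 10 measured genes. Of these, 9 had at least 10 reads per library, against 68.8% of all genes with reads. *Tmprss6*, a hepatocyte protease that cuts hemojuvelin, was the highest at 162.5 CPM per kb, followed by *Hjv*, the gene of hemojuvelin itself, at 47.4 CPM per kb. *Bmpr1b*, a type I BMP receptor gene, had 0 reads in the 8 libraries. The SMAD genes were closer together, with 6.51 CPM per kb for *Smad4*, the common partner, 3.43 CPM per kb for *Smad1* and 3.01 CPM per kb for *Smad9*. Their order changed with the length used, and *Smad1* was the lowest of the 4 with coding length (7.62 CPM per kb) and with all exons (1.70 CPM per kb). All 4 exceeded the inhibitory *Smad6* with each length tried. They did not all exceed *Smad7*, which stood above *Smad1* with coding length (8.06 CPM per kb) and all exons (2.28 CPM per kb), and above 3 of the 4 with the shortest principal mRNAs (5.47 CPM per kb).

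Of the 10 other BMP ligands and extracellular modulators in the table, 7 had at least 10 reads per library. This is near the 68.8% of all genes with reads. *Grem1*, a BMP antagonist, had an estimated 0.124 reads per library, which is about 1 read in all 8 libraries together.

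All 8 genes of iron transport and oxidation had at least 10 reads per library, against 68.8% of all genes with reads. *Trf*, which encodes plasma transferrin, the ligand of both receptors, had 5982 CPM per kb and thus stood above *Hamp*. *Cp*, the ferroxidase ceruloplasmin, followed at 208 CPM per kb, and *Heph*, its membrane-bound relative known from the intestine, was the lowest at 0.106 CPM per kb. Among the 7 genes of iron sensing and ferritin turnover, the iron chaperone genes *Pcbp1* and *Pcbp2* had 64.7 CPM per kb and 61.9 CPM per kb. *Pcbp2* was above *Pcbp1* with coding length (183.6 against 110.8 CPM per kb) and, with all exons, below *Aco1*, the gene of iron regulatory protein 1 (38.3 against 48.4 CPM per kb). *Ftmt*, the mitochondrial ferritin, was the lowest of the list, with 0 reads in the 8 libraries.

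**Figure D4:**
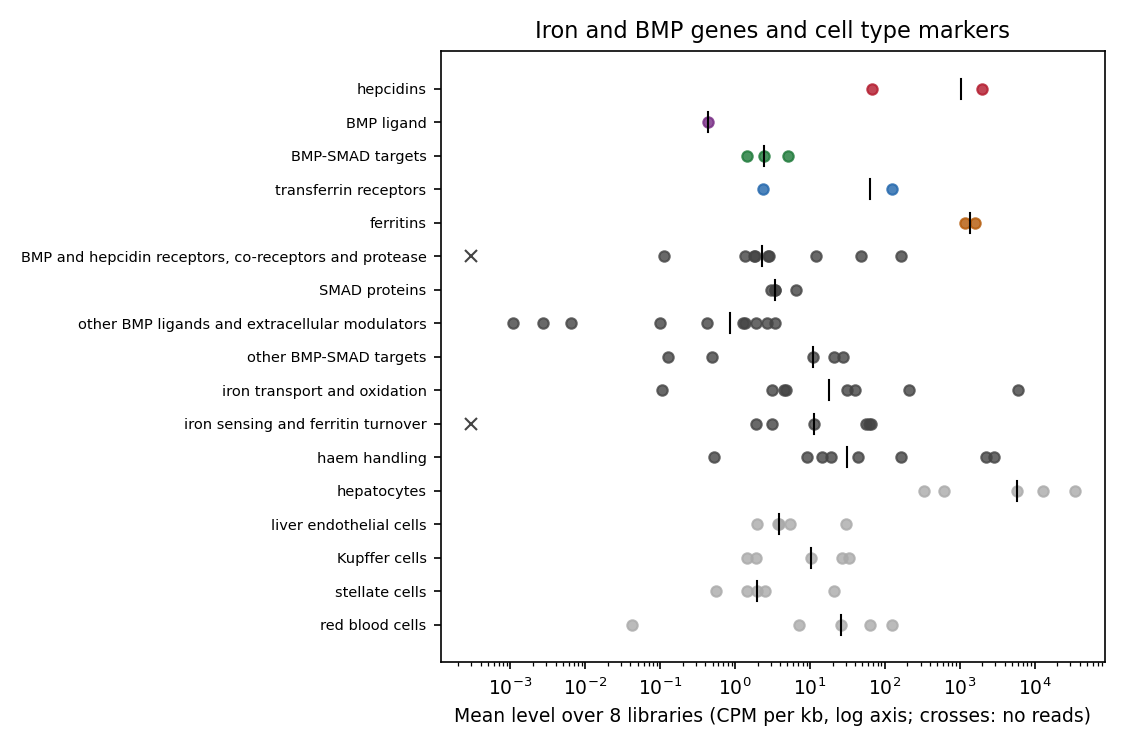
Each point is 1 gene, placed by its mean level over the 8 libraries in CPM per kb on a log axis, with 1 row for each role, pathway list or marker list, a black line at the median of the list and crosses for genes without reads. The ferritins (1181 and 1604) reach the range of the hepatocyte markers (332 to 34208), whereas *Bmp6* (0.436) lies under all 5 endothelial markers (1.93 to 30.5).

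The marker lists of the other cell types were also detected. The Kupffer cell markers, of macrophages that recycle iron from red blood cells, ranged from 1.45 CPM per kb for *Adgre1* to 33.2 CPM per kb for *Clec4f*, although *Cd5l* was the highest with coding length. Stellate cell markers ranged from 0.550 CPM per kb to 20.6 CPM per kb. Of the red blood cell markers, *Hbb-bs*, a beta globin gene, was the highest at 124.2 CPM per kb. Several of the 10 genes, *Fth1*, *Ftl1* and *Tfrc* among them, are used by most of these cells, and the share of each cell type in their levels was not tested.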

How the data were processed

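RNA from 4 wild-type and 4 V227A livers was turned into stranded libraries from poly-A RNA and read from both ends. The authors used Trimmomatic, FastQC, RNA STAR on GRCm38, featureCounts for the counting and edgeR for the comparison of genotypes. Versions, annotation, strand setting and low-count filter are not given in the sources used here.

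The deposited table gives, per gene, the mean log2 CPM over all libraries, which is the authors' value. It also gives 4 columns of the authors' own comparison, which hold a fold change, an F value, its p-value and the FDR. These were not used. The test planned on values per library was not run.

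Reads were estimated from the lowest mean log2 CPM (-3.78, 8242 genes without reads) and edgeR's default prior count of 2 that the authors' values contain. Of 2378 genes with totals of 1 to 5 estimated reads, 99.9% lay within 0.1 of a whole number. Each library's own depth is unknown. The estimate was tested on simulated data. Lengths are those of the longest coding mRNA tagged APPRIS principal 1 in GENCODE vM21. For genes without such an mRNA, the longest coding mRNA was taken, and failing that the longest transcript of any type. The transcript so chosen is called principal here, and the shortest principal mRNA comes from the same candidates. A length was found for 94.8% of genes with reads. The choice of mRNA was made after levels were seen. Python 3.11.15, numpy 2.4.6, pandas 2.3.3, scipy 1.17.1 and matplotlib 3.10.9 were used.

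The members and gene lists were chosen with earlier results of these data known. All 10 members are named, and of each pathway list the 2 highest genes and the lowest by level per kb, with genes outside this rule chosen after their values were seen. Some genes that the rule names are not reported here. Alternatives used coding length, no subtraction of the prior count, other sets of ranked genes and, added after seeing the data, all exons and the shortest principal mRNA.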

Additional observations from a re-analysis of the deposited data

How the results depend on the processing

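No paired analysis was possible because the deposited table carries no values per library, and for the same reason leaving out each library, the fit with DESeq2, other pseudocounts and count filters were not run. Leaving the prior count in place kept all 17 levels and ratios within their counting intervals. The length used to divide the levels moved more of them, by its construction. With coding length the ratio per kb was 34.7 for *Hamp* to *Hamp2* and 31.1 for *Tfr2* to *Tfrc*, and *Fth1* to *Ftl1* turned to 1.14. With all exons these ratios were 39.9, 46.4 and 0.439. With the shortest principal mRNA they were 28.7, 56.0 and 1.18. The order of the 10 genes changed only in the places of *Fth1* and *Ftl1*, under coding length and the shortest principal mRNA. Ranked among the 11711 genes whose mean level reached a log2 CPM of 0, *Bmp6* stood above 6.71% of genes in place of 42.3%, and the percentages of all 10 genes moved beyond counting error. They did so too among genes with a symbol, where *Bmp6* stood above 40.6%. *Bmp6*, the least deeply counted of the 10, has the widest counting interval relative to its level.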

Other observations

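Genes of haem handling were all detected, 8 of 8 with at least 10 reads per library, against 68.8% of all genes with reads. *Hp* and *Hpx*, the plasma proteins haptoglobin and hemopexin that capture haemoglobin and haem, had 2840 CPM per kb and 2242 CPM per kb. With coding length *Hpx* had 2435 CPM per kb and was below *Hamp* (3284 CPM per kb). *Flvcr1*, a membrane transporter first described as a haem exporter, was the lowest of the list at 0.523 CPM per kb.

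Iron-responsive element matches were also found in 2 listed genes outside the group. *Slc40a1*, which encodes ferroportin, the target of hepcidin, had 31.1 CPM per kb and 1 match in the 5′ UTR at chr1:45925466-45925492. *Alas2*, the erythroid enzyme of haem synthesis, had 1 match in the 5′ UTR on chromosome X. *Alas2* had 3590 reads per library and 64.2 CPM per kb. These genes were singled out after their values were seen.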
